A study of Homo sapiens with 6 samples.

Results

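Molecular chaperones of the heat shock families and their DNAJ and BAG partners were followed in Y79 cells after MYCN was targeted. The genes were chosen by symbol: every HSPA, HSP90, DNAJA, DNAJB and DNAJC gene, BAG1 to BAG6, HSPB1, HSPB8, HSPD1, HSPE1, HSPH1, STIP1, and the heat shock factor genes HSF1, HSF2 and HSF4. The table of 17013 genes with values holds 76 of them, and 66 had enough counts to be tested. Y79 is an established human retinoblastoma line with an amplified MYCN gene, which encodes a MYC family transcription factor. One group, named shMYCN in the library titles, received an shRNA against MYCN and is labelled as a knockdown. The other, named shcon, received a control shRNA and is labelled MYCN wild-type. Each group has 3 libraries of poly(A)-selected RNA, all from Y79, and all 6 carry the label batch 1. The series text calls the replicates independent and biological. Neither the sequence of a hairpin nor how many were used is stated, so an effect of a hairpin on another transcript cannot be told apart from an effect of less MYCN.

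HSP70 proteins bind exposed hydrophobic stretches of other proteins in a cycle driven by ATP. J-domain proteins, which the DNAJ symbols name, deliver the substrate and trigger hydrolysis, and nucleotide exchange factors such as the BAG and HSP110 proteins reset the cycle. In the cytosol STIP1 passes substrates on to HSP90, in the endoplasmic reticulum (ER) HSPA5 (BiP) works with HSP90B1 (GRP94), and in the mitochondrial matrix HSPA9 (mortalin) works beside the HSPD1 and HSPE1 chaperonin. Heat shock factors drive the cytosolic set, while ATF6 and XBP1 drive the ER set. By textbook location, 50 of the 76 genes were placed in the cytosol or nucleus, 13 in the ER and 8 in mitochondria, and 5 were left unassigned.

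The libraries held 15490271 to 15762705 counts with the MYCN hairpin and 15515988 to 16078402 counts with the control hairpin, and levels are given as CPM, the usual scaling of counts to library size, here with TMM factors. MYCN itself measured 2413, 2284 and 2195 CPM with the MYCN hairpin, against 3046, 3128 and 2876 CPM with the control hairpin, with a log2 fold change of -0.39 ± 0.0432 (SE). Its adjusted p was 8.0e-11 by edgeR's quasi-likelihood test with Benjamini-Hochberg adjustment over all genes, the test behind every adjusted p below unless another is named. The photoreceptor lineage genes CRX and OTX2 were abundant, at 278 and 679.5 CPM with the MYCN hairpin and 217 and 1078 CPM with the control hairpin. Defining genes of other cell types were low: PTPRC, GFAP and EPCAM measured 0.0801, 0.0201 and 0.263 CPM with the MYCN hairpin, against 0.0693, 0.0231 and 0.291 CPM with the control hairpin. KRT8 and CD68 were higher than these, at 1.00 and 0.765 CPM with the MYCN hairpin. With the control hairpin they measured 1.07 and 0.940 CPM, and neither was called (adjusted p = 0.787 and 0.421). Of 7 photoreceptor lineage genes 6 rose and 1, OTX2, fell. Besides CRX, those that rose were NRL, RXRG, THRB, RCVRN and ARR3, at 348, 64.6, 60.6, 25.6 and 17.6 CPM with the MYCN hairpin. With the control hairpin they measured 145, 22, 11.1, 8.72 and 5.06 CPM. The summed level of the 7 was 1453 to 1486 CPM with the MYCN hairpin and 1453 to 1537 CPM with the control hairpin. That sum includes the fall of OTX2, the most abundant of them, and does not show the single genes. The collagen genes COL1A1 and COL1A2 rose but stayed low, at 2.75 and 1.87 CPM with the MYCN hairpin, against 1.12 and 0.424 CPM with the control hairpin. The 2 other fibroblast genes, DCN and LUM, were near 0, and the part of these markers in the chaperone results was not tested. In bulk RNA, fewer cells with a transcript and less transcript per cell cannot be told apart.

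Most called genes of the cytosol and of mitochondria were lower and most of those of the ER were higher, and whether the compartments differ from one another was not tested. Of 43 tested cytosolic or nuclear genes 25 fell and 10 rose; their median log2 fold change was -0.22, and with library sizes alone 14 fell and 14 rose. In the ER 10 of 13 tested genes rose and 2 fell, and the median was 0.25. In mitochondria 5 of 7 tested genes fell and 1 rose, and the median was -0.83. Over all members 34 fell and 21 rose of 66 tested (51.5% and 31.8%, calls at an adjusted p under 0.05). Among all 12819 genes tested 37.9% fell and 38% rose and the median was 0.005, so the share that rose was not above the background. With library sizes alone 22 members fell and 27 rose, where 3348 of all genes fell and 6597 rose. Most of the transcriptome differed in this comparison, with 75.8% of genes called in either direction, against 55 of the 66 members. The 55 include DNAJC5G, among those that rose, and DNAJB7, among those that fell, and both are also in the cytosolic counts. DNAJC5G passed the count filter only through the MYCN hairpin libraries, where it was higher. DNAJB7 reached the filter in 3 control hairpin libraries but only 2 MYCN hairpin libraries, too few without the group where it was higher. Neither call is evidence of a change. Requiring at least 1 CPM in 3 libraries removed both and left 53 members called. The share of all genes called under that filter was not compared. Few changes were large: 2 members, HSPB8 and DNAJC1, rose and 2, HSPH1 and HSPE1, fell at least 2-fold, where 9.24% and 5.25% of all genes did. The libraries of the groups did not overlap for 58 of the 66 members and for 76.8% of all genes tested.

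**Figure D1:**
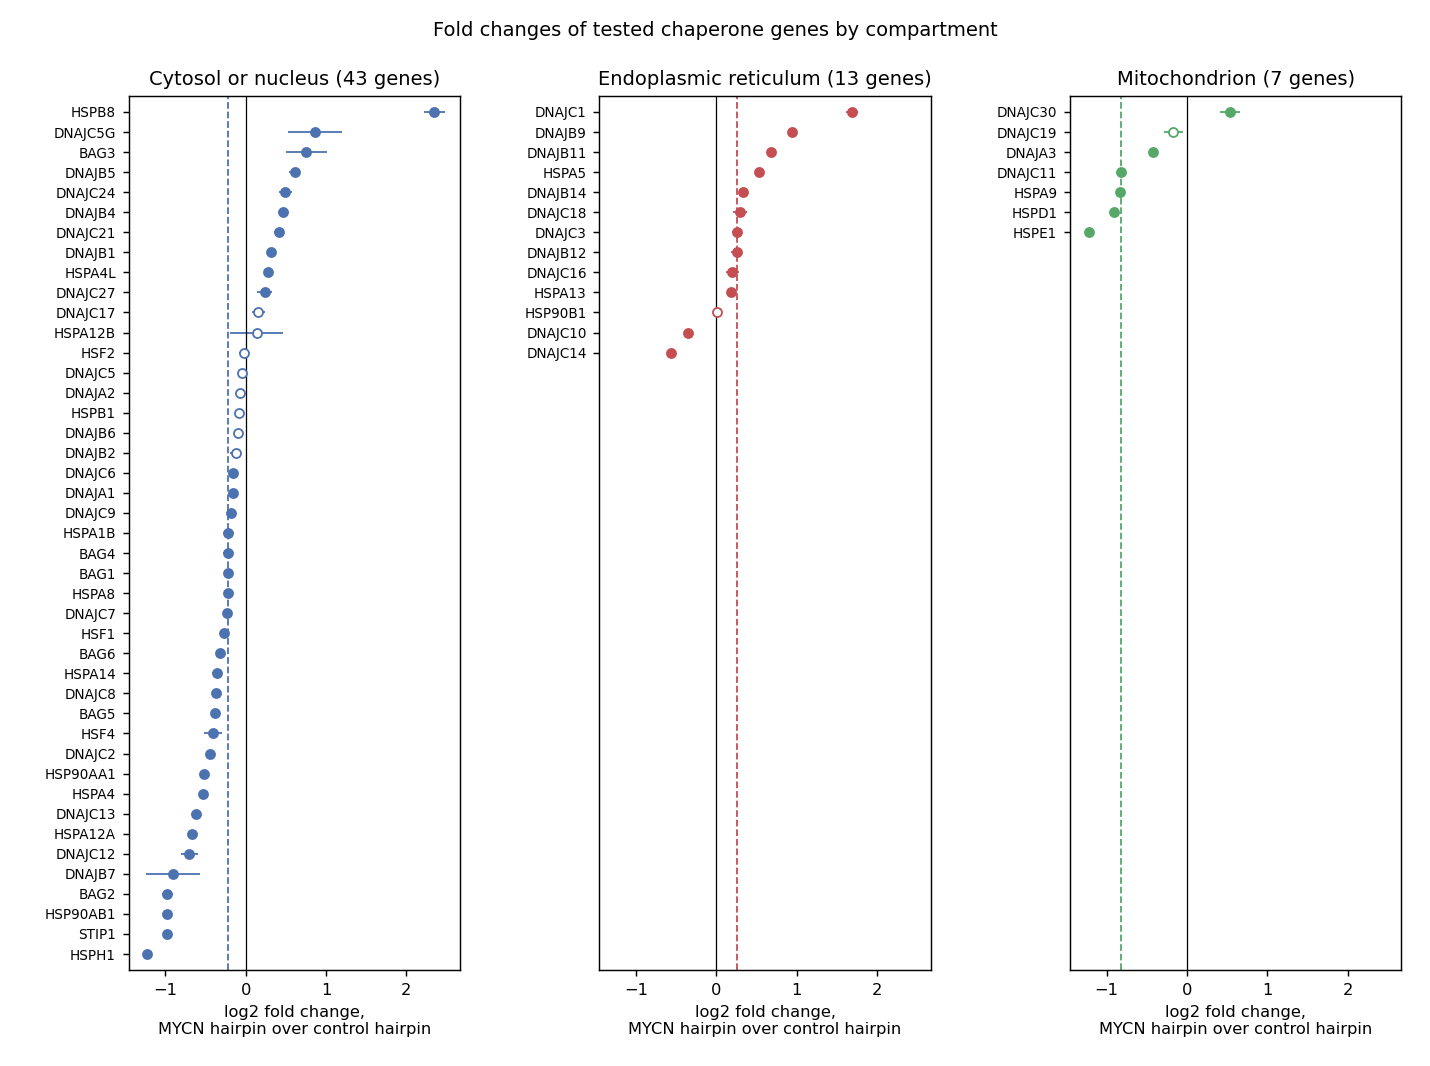
Log2 fold change (MYCN hairpin over control hairpin, x axis) of each tested cytosolic or nuclear, ER and mitochondrial gene, with its SE as a bar; filled points passed the test, open points did not, and dashed lines mark the medians of -0.22, 0.25 and -0.83. Most ER genes lie right of 0, and most mitochondrial genes lie left of it, with DNAJC30 on the right.

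Summed over all their genes, the compartments moved in the same directions, and a sum is carried by its most abundant members. The 50 cytosolic genes held 7987, 7955 and 8209.5 CPM with the MYCN hairpin, against 11555, 11752 and 11864 CPM with the control hairpin. The 13 ER genes held 1598, 1644 and 1676 CPM with the MYCN hairpin, against 1389.9, 1373 and 1397 CPM with the control hairpin, so they were higher with the MYCN hairpin in all 3 libraries. The 8 mitochondrial genes held 1771, 1692 and 1829 CPM with the MYCN hairpin, against 3134, 3258 and 3379.5 CPM with the control hairpin. Neither the cytosolic nor the mitochondrial sums overlapped between the groups. All members together took 1.21% to 1.242% of counts with the MYCN hairpin and 1.526% to 1.55% with the control hairpin.

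Promoters are shown for genes of each compartment, because the factors that read them differ: heat shock factors read the heat shock element, ATF6 the ER stress element, and MYC with MAX the E-box. The heat shock element was searched as GAA, TTC and GAA with 2 free bases between neighbours, its shorter form as GAA and TTC with 2 free bases between them, the ER stress element as CCAAT and CCACG with 9 free bases between them, and the E-box as CACGTG. Sequences are from RefSeq (GRCh38.p14), run 5′ to 3′ from 250 bases before to 50 bases after the annotated start, and carry in capitals every match to one of these motifs on either strand.
HSPA8 promoter (chr11:123062087-123062386, - strand): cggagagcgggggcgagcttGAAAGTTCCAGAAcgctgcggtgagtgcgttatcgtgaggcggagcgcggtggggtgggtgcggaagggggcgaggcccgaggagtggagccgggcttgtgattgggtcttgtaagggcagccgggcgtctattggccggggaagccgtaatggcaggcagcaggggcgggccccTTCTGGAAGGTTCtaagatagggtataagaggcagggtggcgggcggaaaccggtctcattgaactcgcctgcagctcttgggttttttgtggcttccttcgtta
HSPB8 promoter (chr12:119178681-119178980, + strand): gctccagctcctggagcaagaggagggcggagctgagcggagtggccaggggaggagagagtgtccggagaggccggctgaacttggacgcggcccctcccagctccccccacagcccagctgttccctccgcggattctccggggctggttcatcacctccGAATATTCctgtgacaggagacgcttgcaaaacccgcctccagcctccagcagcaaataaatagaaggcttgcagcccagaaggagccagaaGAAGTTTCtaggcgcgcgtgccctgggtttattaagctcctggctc
HSPA5 promoter (chr9:125241294-125241593, - strand): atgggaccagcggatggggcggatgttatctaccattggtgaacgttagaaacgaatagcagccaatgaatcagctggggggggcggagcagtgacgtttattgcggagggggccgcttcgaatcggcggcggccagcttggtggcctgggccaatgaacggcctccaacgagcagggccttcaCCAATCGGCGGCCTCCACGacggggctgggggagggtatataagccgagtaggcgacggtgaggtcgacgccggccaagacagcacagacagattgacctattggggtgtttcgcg
HSP90B1 promoter (chr12:103930160-103930459, + strand): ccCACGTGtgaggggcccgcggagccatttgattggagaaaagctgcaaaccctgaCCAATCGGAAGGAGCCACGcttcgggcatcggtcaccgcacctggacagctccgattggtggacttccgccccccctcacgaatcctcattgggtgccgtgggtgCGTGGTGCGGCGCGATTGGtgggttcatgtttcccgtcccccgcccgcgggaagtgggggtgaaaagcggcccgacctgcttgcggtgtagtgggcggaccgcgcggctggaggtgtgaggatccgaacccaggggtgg
DNAJB9 promoter (chr7:108569624-108569923, + strand): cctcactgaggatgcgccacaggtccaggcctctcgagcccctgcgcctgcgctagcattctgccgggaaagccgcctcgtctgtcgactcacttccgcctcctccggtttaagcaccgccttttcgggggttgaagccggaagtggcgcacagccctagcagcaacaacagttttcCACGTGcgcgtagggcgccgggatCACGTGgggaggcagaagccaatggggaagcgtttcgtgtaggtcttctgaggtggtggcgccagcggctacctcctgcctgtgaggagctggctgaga
HSPE1 promoter (chr2:197500129-197500428, + strand): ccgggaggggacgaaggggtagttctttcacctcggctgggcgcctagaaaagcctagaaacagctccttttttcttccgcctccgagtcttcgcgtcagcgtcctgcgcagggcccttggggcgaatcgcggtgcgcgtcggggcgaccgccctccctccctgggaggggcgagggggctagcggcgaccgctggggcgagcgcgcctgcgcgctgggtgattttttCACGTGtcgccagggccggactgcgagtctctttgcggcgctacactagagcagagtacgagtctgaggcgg
HSPA9 promoter (chr5:138575352-138575651, - strand): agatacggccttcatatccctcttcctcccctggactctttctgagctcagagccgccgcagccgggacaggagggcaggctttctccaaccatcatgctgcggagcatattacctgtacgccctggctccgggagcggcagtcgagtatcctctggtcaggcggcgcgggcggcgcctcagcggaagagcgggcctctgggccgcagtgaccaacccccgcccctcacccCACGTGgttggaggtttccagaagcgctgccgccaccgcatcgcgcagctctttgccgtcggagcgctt

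Capitals in HSPA8 are a pair of heat shock elements, and those in HSPB8 are a pair of the shorter form. HSPA5 carries 1 exact match to the ER stress element and HSP90B1 carries 2, the second of them on the other strand. An E-box lies at the 5′ end of the HSP90B1 window. Looser forms of the element were not searched, so these are not counts of working elements. DNAJB9 carries 2 E-boxes, and HSPE1 and HSPA9 carry 1 each. The E-box of HSPE1, at 197500357 to 197500362 on chromosome 2, also lies in the window of HSPD1, since both genes start from the same stretch in opposite directions. Promoters were found for 68 of the 76 members. The heat shock element occurred in 4 of 44 cytosolic promoters (9.09%), 0 of 12 ER promoters and 0 of 8 mitochondrial promoters, against 0.299% of 10351 promoters of tested genes. The 4 were DNAJA1, DNAJB6, HSPA6 and HSPA8. Its shorter form, which every match of the longer one contains, occurred in 11 of the 44 (25%), against 4.39% of tested genes. The 44 also include members without enough counts for the test, of which HSPA6, HSPA1A and HSPA1L carry the shorter form. Of all 27195 promoters searched, 0.489% carried the longer form and 6.89% the shorter. The ER stress element occurred in 2 of the 12 ER promoters, those of HSPA5 and HSP90B1, against 0.126% of tested genes. The E-box occurred in 3 of 8 mitochondrial, 3 of 12 ER and 3 of 44 cytosolic promoters, against 10.2% of tested genes. Its carriers moved both ways: HSPD1, HSPE1, HSPA9, DNAJC8 and DNAJC12 fell, DNAJB9 and DNAJC16 rose, and HSP90B1 and HSF2 did not pass the test. A match is a run of letters and was not tested as a binding site.

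In the cytosol both HSP90 genes and the adaptor that feeds them were lower. HSP90AB1, the constitutive HSP90 (chromosome 6, 44246166 to 44253888, GRCh38), measured 2099.9, 2109.5 and 2186 CPM with the MYCN hairpin, against 4113, 4216 and 4297 CPM with the control hairpin. No library of 1 group reached the other, and the level was 0.506 times that of the control hairpin libraries (log2 fold change -0.98 ± 0.0414 SE, adjusted p = 4.5e-24). HSP90AA1, the stress-inducible form, measured 1249, 1244 and 1289 CPM with the MYCN hairpin, against 1748, 1813 and 1875 CPM with the control hairpin, and fell less (log2 fold change -0.52 ± 0.0403, adjusted p = 2.7e-15). STIP1, the adaptor that holds HSP70 and HSP90 together, measured 224, 225 and 229 CPM with the MYCN hairpin, against 443, 453 and 446 CPM with the control hairpin, a log2 fold change of -0.99 ± 0.0379 (adjusted p = 2.0e-25). Per kilobase of transcript, HSP90AB1 was the highest of all members with either hairpin, at 797 CPM with the MYCN hairpin and 1574 CPM with the control hairpin.

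The log2 ratio of HSP90AA1 to HSP90AB1 within a library does not depend on scaling between libraries. It was -0.75, -0.76 and -0.76 in MYCN hairpin libraries and -1.23, -1.22 and -1.20 in control hairpin libraries. The ratios did not overlap, and they differed by 0.46 (exact two-sided permutation test over the 6 libraries, p = 0.1, the smallest that 3 against 3 allow). This was 1 of 11 such ratios compared, and adjusted over the 11 each p was 0.11, except for HSPA1A over HSPA8 (0.6), which rests on the few HSPA1A counts.

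Other cochaperones of HSP90, from a list of 16 genes of which all were tested, fell in 13 cases (81.2%) and rose in 2 (12.5%). Of all genes tested 37.9% fell and 38% rose. The median log2 fold change of the list was -0.24. AHSA1, which stimulates the HSP90 ATPase, measured 72 ± 3.06 CPM with the MYCN hairpin and 139 ± 6.12 CPM with the control hairpin (SD, n = 3 each; log2 fold change -0.95). FKBP4, an immunophilin of steroid receptor complexes, fell by 0.82 on the log2 scale. The myosin chaperone gene UNC45A rose by 0.28 and the phosphatase gene PPP5C by 0.25. When scaled by library sizes only, 7 were called lower and 3 higher, where 3348 of all genes were called lower and 6597 higher.

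Among cytosolic HSP70 genes the constitutive form changed little and the inducible ones were low. HSPA8 (HSC70; chromosome 11, 123057489 to 123063230), which carries the pair of heat shock elements shown, measured 1460.3, 1466 and 1518 CPM with the MYCN hairpin, against 1761, 1774 and 1652 CPM with the control hairpin. Its groups did not overlap, but the difference was small (log2 fold change -0.22 ± 0.0406, adjusted p = 4.9e-06), and with library sizes alone it was -0.04 and not called (adjusted p = 0.315). GENCODE 29 names 17 HSPA8 pseudogenes, so its level depends on how shared reads were counted. HSPA1B, the inducible HSP70, measured 23 ± 0.173 CPM with the MYCN hairpin and 26.8 ± 0.591 CPM with the control hairpin, a log2 fold change of -0.22 that was -0.04 and not called with library sizes alone (adjusted p = 0.624). HSPA1A, a near-identical copy of HSPA1B, had 2 counts over the MYCN hairpin libraries and 3 over the control hairpin libraries, at or under the limit of 3 counts, so the counts of this pair are uncertain and no ratio is given. HSPA6, which is strictly stress-inducible, had 34 counts over the MYCN hairpin libraries and 27 over the control hairpin libraries, and HSPA1L and HSPA2 had 3 and 17 counts with the MYCN hairpin and 2 and 11 with the control hairpin. None of these except HSPA1B had enough counts to be tested. HSPA12A, a divergent HSP70, fell by 0.67 (adjusted p = 2.8e-18) and HSPA14, which works on ribosomes with DNAJC2, by 0.36.

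HSP110 proteins exchange the nucleotide of HSP70, and their genes moved apart. HSPH1 (HSP105; chromosome 13, 31134974 to 31162388) had the lowest log2 fold change of all members. It measured 108, 104 and 114 CPM with the MYCN hairpin, against 250.4, 251 and 262 CPM with the control hairpin (log2 fold change -1.23 ± 0.0413, adjusted p = 1.8e-27). HSPA4 (APG-2) fell by 0.54, while HSPA4L (APG-1) rose by 0.27 (adjusted p = 3.6e-07). Within libraries the log2 ratio of HSPH1 to HSPA8 was -3.76, -3.81 and -3.73 in MYCN hairpin libraries and -2.81, -2.82 and -2.65 in control hairpin libraries. The ratio was lower in every MYCN hairpin library (exact permutation test, p = 0.1).

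Of the BAG genes, 5 of 6 fell and 1 rose (83.3% and 16.7%), where 37.9% and 38% of all genes tested did. BAG2, an inhibitor of the ubiquitin ligase CHIP, measured 18, 21.1 and 20.3 CPM with the MYCN hairpin, against 39.3, 38.1 and 39.3 CPM with the control hairpin, a log2 fold change of -0.98 ± 0.0674 (adjusted p = 8.2e-17). All its MYCN hairpin libraries lay below all its control hairpin libraries. BAG6, which guards newly made tail-anchored proteins, fell by 0.32, BAG5 by 0.38, BAG1 by 0.22 and BAG4 by 0.22, and with library sizes alone BAG1 (-0.04) and BAG4 (-0.04) were not called (adjusted p = 0.439 and 0.587). BAG3, which directs proteins to selective autophagy, had few counts, with 98 counts over the MYCN hairpin libraries and 52 over the control hairpin libraries, a ratio of 1.69 with an exact 95% counting interval of 1.2 to 2.41. Its log2 fold change was 0.75 ± 0.254 (adjusted p = 0.0075), and it was not called without MYCN hairpin replicate 3 (0.57, adjusted p = 0.073), without control hairpin replicate 1 (0.56, adjusted p = 0.0681) or by DESeq2 (adjusted p = 0.0506).

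HSPB8, the small heat shock protein that works with BAG3, had the highest log2 fold change of all members (chromosome 12, 119178642 to 119221131). It measured 15.6, 13.1 and 14.2 CPM with the MYCN hairpin, against 2.82, 3.33 and 2.22 CPM with the control hairpin. The groups lay far apart at a low level, with 712 counts over the MYCN hairpin libraries and 125 over the control hairpin libraries, a ratio of 5.11 (exact 95% counting interval 4.22 to 6.23; log2 fold change 2.35 ± 0.134, adjusted p = 1.3e-19). HSPB1 (HSP27) measured 153, 159 and 155 CPM with the MYCN hairpin, against 174, 172 and 149 CPM with the control hairpin, and its groups overlapped, since control hairpin replicate 3 lay below all MYCN hairpin libraries. Its log2 fold change of -0.08 did not pass the test (adjusted p = 0.105), and without that replicate it was -0.15 and called (adjusted p = 0.000382). Of 8 other small heat shock protein genes listed, 7 are in the table and 1 had enough counts: HSPB11, a subunit of the intraflagellar transport complex, rose by 1.43. CRYAB, the alpha-B crystallin gene, measured 0.0598 CPM with the MYCN hairpin and 0.0222 CPM with the control hairpin.

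Of the heat shock factor genes, HSF1, the main activator of the heat shock response, measured 42.7, 42.7 and 37.9 CPM with the MYCN hairpin, against 51.9, 50.9 and 45.5 CPM with the control hairpin. The groups did not overlap, although MYCN hairpin replicate 3 and control hairpin replicate 3 were both the lowest of their groups (log2 fold change -0.27 ± 0.0597, adjusted p = 1.2e-04; -0.08 and adjusted p = 0.214 with library sizes alone). HSF4, a factor of lens development, fell by 0.40 and was low, at 7.91 ± 1.02 CPM with the MYCN hairpin and 10.5 ± 0.875 CPM with the control hairpin (SD, n = 3 each), with an adjusted p of 0.00146, and 0.0777 with library sizes alone. HSF2 did not pass the test, at 57.2 ± 2.71 CPM with the MYCN hairpin and 58.2 ± 3.48 CPM with the control hairpin (log2 fold change -0.03 ± 0.0543, adjusted p = 0.683), and had the opposite sign with library sizes alone (0.16, adjusted p = 0.00932).

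**Figure D2:**
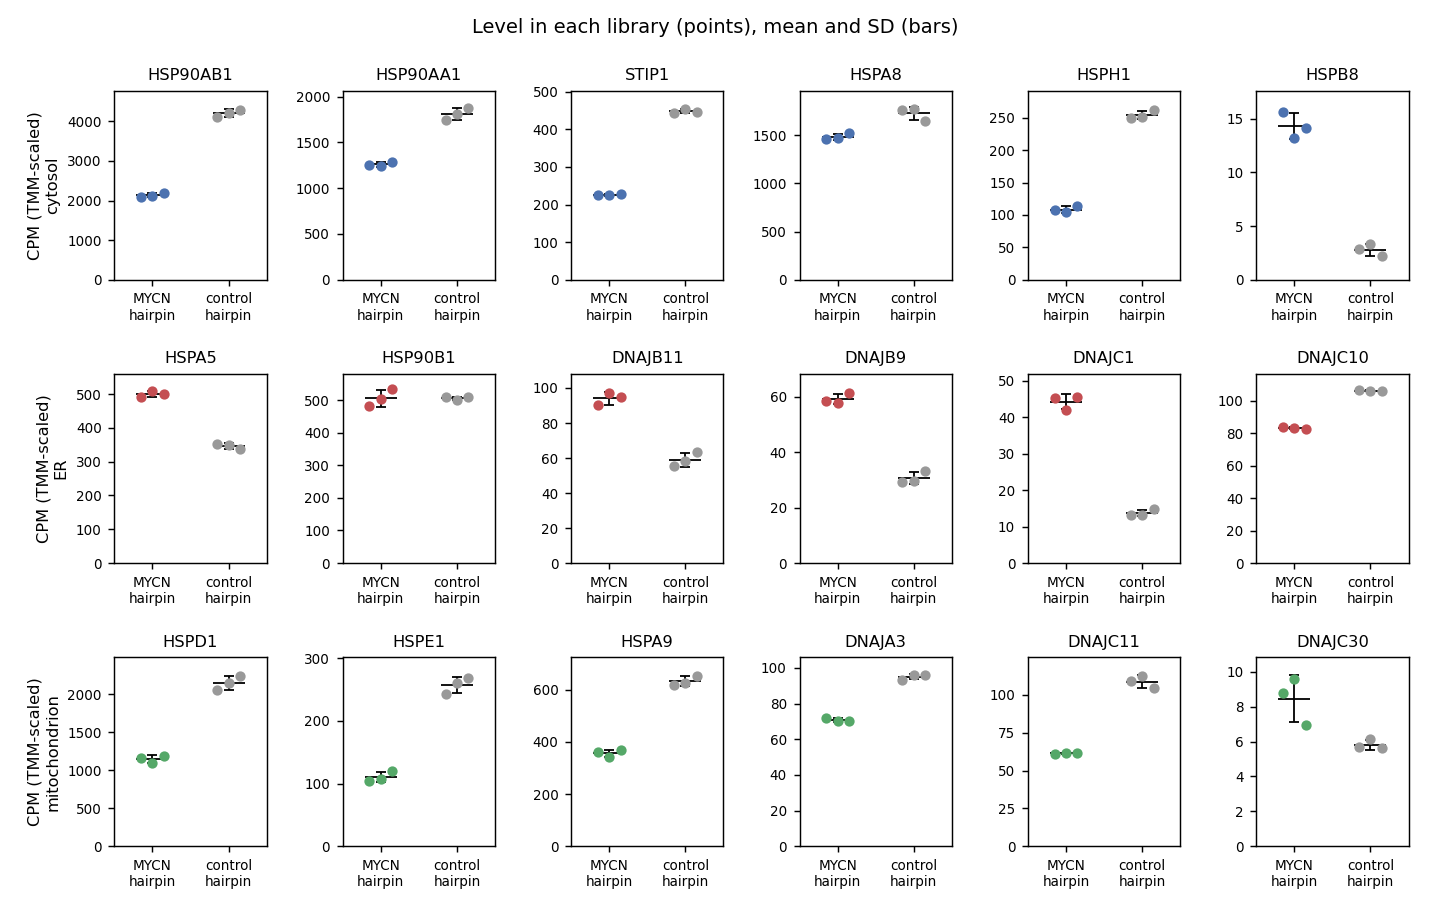
TMM-scaled CPM (y axis, from 0) of 18 genes in each MYCN hairpin and control hairpin library, with cytosolic genes in the top row, ER genes in the middle and mitochondrial genes at the bottom; points are libraries, and bars are the mean and SD of 3. HSPB8, DNAJC1 and DNAJB9 lie higher with the MYCN hairpin, HSP90AB1, STIP1, HSPH1, HSPD1 and HSPE1 lie lower, and HSP90B1 overlaps.

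J-domain genes of the cytosol went both ways. Of the DNAJA genes placed in the cytosol DNAJA1 fell by 0.16 (adjusted p = 3.0e-04), while DNAJA2 had -0.07 (adjusted p = 0.102), and with library sizes alone both had the opposite sign, at 0.02 and 0.11 (adjusted p = 0.623 and 0.0094). Of 10 DNAJB genes tested 7 rose and 1, DNAJB7, fell (70% and 10%), where 38% and 37.9% of all genes tested did. Those that rose included DNAJB1, DNAJB4 and DNAJB5 of the cytosol. DNAJB1 (HSP40), which with HSP70 and HSP110 takes protein aggregates apart, measured 93.4, 88.2 and 93.3 CPM with the MYCN hairpin, against 74.2, 73.4 and 73 CPM with the control hairpin, a log2 fold change of 0.32 ± 0.0465 (adjusted p = 7.5e-08). The groups were separate. The log2 ratio of DNAJB1 to DNAJA1 within libraries was -1.47, -1.54 and -1.46 in MYCN hairpin libraries and -1.91, -1.94 and -2.05 in control hairpin libraries, a difference of 0.48 (exact permutation test, p = 0.1). DNAJB5 rose by 0.61 and DNAJB4 by 0.47. DNAJB6, a suppressor of polyglutamine aggregation, lay at the threshold (-0.09 ± 0.0435, adjusted p = 0.0503; 0.019, 0.0333 and 0.0245 without MYCN hairpin replicate 3, control hairpin replicate 1 and control hairpin replicate 2). DNAJB7, with 32 counts over the MYCN hairpin libraries and 54 over the control hairpin libraries, had -0.90 ± 0.338 (adjusted p = 0.0153). It reached the count filter in 3 control hairpin libraries but only 2 MYCN hairpin libraries, too few without the group where it was higher. It was not called without MYCN hairpin replicate 1 (adjusted p = 0.143), without control hairpin replicate 1 (0.107), with library sizes alone (0.0538) or by DESeq2 (0.0779).

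Of 25 tested DNAJC genes, which share little beyond the J domain, 12 fell and 9 rose, DNAJC5G among the latter. These are 48% and 36%, beside 37.9% and 38% of all genes tested. In the cytosol and nucleus DNAJC12, a chaperone of aromatic amino acid hydroxylases, fell by 0.70, and DNAJC13, an endosomal coat partner, by 0.62. DNAJC2, which tethers HSP70 to the ribosome together with HSPA14, fell by 0.44, to 64.6 ± 2.64 CPM with the MYCN hairpin, against 87.8 ± 7.8 CPM with the control hairpin (SD, n = 3 each). DNAJC8, a splicing factor, fell by 0.38 and DNAJC7, a cochaperone with tetratricopeptide repeats, by 0.23, the last not called with library sizes alone (adjusted p = 0.341). DNAJC21, needed to mature the large ribosomal subunit, rose by 0.41, and DNAJC24, an enzyme of diphthamide synthesis, by 0.49. DNAJC5, the cysteine string protein of synaptic vesicles, measured 127 ± 5.26 CPM with the MYCN hairpin and 132 ± 3.54 CPM with the control hairpin and did not pass the test (-0.05, adjusted p = 0.336; 0.14 and 0.00396 with library sizes alone). DNAJC5G had 53 counts over the MYCN hairpin libraries and 26 over the control hairpin libraries (log2 fold change 0.86 ± 0.337, adjusted p = 0.0201), but it passed the count filter only through the MYCN hairpin libraries, and its call ended without MYCN hairpin replicate 1 or 3 or control hairpin replicate 1 (adjusted p = 0.0861, 0.0609 and 0.0665) and by DESeq2 (0.101). DNAJC9, a histone chaperone, and DNAJC6, the neuronal auxilin, fell by 0.18 and 0.15, and with library sizes alone both had the opposite sign and were not called. The DNAJC6 call also ended with upper quartile scaling, without MYCN hairpin replicate 1 and without control hairpin replicate 3. DNAJC27 rose by 0.24, a call lost without MYCN hairpin replicate 1 or 2, without control hairpin replicate 2 and by DESeq2. DNAJC17 (0.16, adjusted p = 0.0925) and DNAJB2 (-0.13, adjusted p = 0.103) did not pass the test.

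In the ER, the HSP70 and several of its J-domain partners rose together, while the HSP90 did not pass the test. HSPA5 (chromosome 9, 125234853 to 125241330) measured 492, 509 and 499.9 CPM with the MYCN hairpin, against 352, 349.6 and 336 CPM with the control hairpin. Its lowest MYCN hairpin library stood above its highest control hairpin library, a log2 fold change of 0.53 ± 0.0382 (adjusted p = 3.0e-16). HSP90B1 measured 482, 503 and 534 CPM with the MYCN hairpin, against 508, 499.6 and 509 CPM with the control hairpin. The groups overlapped and the log2 fold change was 0.00 ± 0.0397 (adjusted p = 0.967), against 0.18 with library sizes alone (adjusted p = 3.68e-05). Relative to their cytosolic counterparts both were higher: the log2 ratio of HSPA5 to HSPA8 was -1.57, -1.53 and -1.60 in MYCN hairpin libraries and -2.32, -2.34 and -2.29 in control hairpin libraries, a difference of 0.75, and HSP90B1 to HSP90AB1 differed by 0.98 (exact permutation test, p = 0.1 for each). HSPA13, an HSP70-like protein of microsomes, rose by 0.19 (adjusted p = 2.2e-04).

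Of the ER J-domain genes, DNAJC1 (ERdj1), whose membrane-bound product can contact ribosomes, had the highest log2 fold change. It measured 45.2, 41.9 and 45.6 CPM with the MYCN hairpin, against 13.2, 13.2 and 14.8 CPM with the control hairpin, a ratio of 3.22 (log2 fold change 1.69 ± 0.071, adjusted p = 4.3e-24). DNAJB9 (ERdj4), which hands misfolded proteins to degradation and restrains the sensor IRE1, measured 58.6, 57.8 and 61.5 CPM with the MYCN hairpin, against 29.1, 29.8 and 33.3 CPM with the control hairpin, a log2 fold change of 0.95 ± 0.0587 (adjusted p = 2.2e-18). DNAJB11 (ERdj3), a lumenal holdase, measured 90.1, 97.1 and 95.1 CPM with the MYCN hairpin, against 55.4, 58 and 63.4 CPM with the control hairpin, a log2 fold change of 0.68 ± 0.051 (adjusted p = 1.4e-15). For these 3 genes no library of 1 group reached the range of the other. DNAJB14 and DNAJB12, which anchor HSP70 to the outer face of the ER for degradation, rose by 0.33 and 0.25. DNAJC18 rose by 0.29 and DNAJC3 (p58IPK) by 0.25, and DNAJC16 by 0.20 (adjusted p = 0.0227), although its groups overlapped and its call ended without MYCN hairpin replicate 3, without control hairpin replicate 1 or 2, and by DESeq2. The exceptions were DNAJC10 (ERdj5), a disulfide reductase, and DNAJC14, a membrane protein. DNAJC10 measured 83.5, 83.4 and 82.9 CPM with the MYCN hairpin, against 107, 106 and 106 CPM with the control hairpin, and fell by 0.35 with no overlap (adjusted p = 2.4e-09). DNAJC14 fell by 0.57 (adjusted p = 9.2e-13).

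ER folding enzymes and lectins outside the heat shock families, a list of 11, rose in 8 cases (72.7%) and fell in 2 (18.2%). Of all genes tested 38% rose and 37.9% fell. The median log2 fold change of the list was 0.42. PDIA4, a disulfide isomerase, measured 298 ± 3.99 CPM with the MYCN hairpin and 194 ± 13.4 CPM with the control hairpin (SD, n = 3 each) and rose by 0.62, and SDF2L1, a partner of DNAJB11, rose by 0.48. SEC63, the J-domain protein of the translocation channel, fell by 0.82 and the oxidase gene ERO1B by 0.49. Of nucleotide exchange factors outside the BAG family, 3 of 5 fell (60%) and 0 rose, where 37.9% and 38% of all genes tested did. Lowest were GRPEL2 (-0.82) and GRPEL1 (-0.47) of mitochondria. The other was HSPBP1 (-0.26), which was not called with library sizes alone (adjusted p = 0.387). The ER exchange factors HYOU1 and SIL1 had -0.04 and 0.10 and did not pass the test (adjusted p = 0.41 and 0.173).

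In mitochondria the matrix chaperones were lower. HSPD1 (HSP60; chromosome 2, 197486581 to 197516737) measured 1157, 1092 and 1192 CPM with the MYCN hairpin, against 2055, 2145 and 2239 CPM with the control hairpin. HSPE1 (HSP10; chromosome 2, 197499994 to 197503457), the lid of the same chaperonin, measured 105, 107 and 119.6 CPM with the MYCN hairpin, against 243, 261 and 268 CPM with the control hairpin. Both fell without overlap, HSPD1 by 0.90 ± 0.0425 and HSPE1 by 1.22 ± 0.0459 on the log2 scale (SE; adjusted p = 1.9e-22 and 1.2e-23). Within libraries the log2 ratio of HSPD1 to HSPE1 was 3.46, 3.35 and 3.31 in MYCN hairpin libraries and 3.08, 3.04 and 3.06 in control hairpin libraries. It differed by 0.32 (exact permutation test, p = 0.1), and the ratios of the groups did not overlap. GENCODE 29 names 17 HSPD1 and 26 HSPE1 pseudogenes and the annotated genes overlap, so both counts depend on how shared reads were assigned.

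HSPA9, the HSP70 of the matrix and of the import motor (chromosome 5, 138553756 to 138575724), measured 360.1, 340.4 and 368 CPM with the MYCN hairpin, against 619, 627 and 654 CPM with the control hairpin, a log2 fold change of -0.83 ± 0.0398 (adjusted p = 3.6e-22). The groups were separate, and HSPA9 fell also relative to HSPA8, with a log2 ratio that differed by -0.61 (exact permutation test, p = 0.1). DNAJC11, a part of the complex that bridges the inner and outer membranes, measured 60.9, 61.6 and 61.6 CPM with the MYCN hairpin, against 109, 113 and 105 CPM with the control hairpin (log2 fold change -0.83 ± 0.0469, adjusted p = 1.2e-19). DNAJA3 (TID1), a matrix J protein, fell by 0.43 (adjusted p = 4.4e-11). DNAJC19, a J protein of the import motor, did not pass the test (-0.17 ± 0.118, adjusted p = 0.19), and 9 pseudogenes carry its name. Without control hairpin replicate 1 it was called, which gave 6 mitochondrial genes called lower in place of 5. DNAJC30, which assists the repair of complex I, was the exception, at 8.81, 9.59 and 6.96 CPM with the MYCN hairpin, against 5.71, 6.14 and 5.62 CPM with the control hairpin, a log2 fold change of 0.54 ± 0.128 (adjusted p = 2.5e-04). DNAJC15, a J protein related to DNAJC19, had 47 counts over the MYCN hairpin libraries and 5 over the control hairpin libraries, a ratio of 8.43 with an exact 95% counting interval of 3.37 to 27.2. It did not pass the count filter. In fits without 1 library it passed only through the MYCN hairpin libraries, where it is higher, so its call there, like that with no filter, is not counted as support.

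Of 9 further mitochondrial chaperones and proteases 7 fell (77.8%) and 0 rose, where 37.9% and 38% of all genes tested did. Their median log2 fold change was -0.50. TRAP1, the mitochondrial HSP90, measured 53, 48.7 and 50.8 CPM with the MYCN hairpin, against 346, 349 and 321 CPM with the control hairpin. It fell by 2.74 ± 0.0457 on the log2 scale (adjusted p = 4.0e-38), further than any member. CLPX, the unfoldase of the ClpXP protease, fell by 0.92. The smallest decreases among those called were those of CLPB (-0.44), a disaggregase, and HSCB (-0.30), the J protein of iron-sulfur cluster assembly, and HSCB was not called with library sizes alone, without MYCN hairpin replicate 1, without control hairpin replicate 2 or by DESeq2 (adjusted p = 0.34, 0.0912, 0.0584 and 0.0633). A separate list, not of mitochondrial genes alone, held 4 J-domain proteins with other names. Of these 3 fell (75%) and 1 rose (25%), where 37.9% and 38% of all genes tested did. The 1 that rose was GAK, the broadly expressed auxilin, by 0.36.

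**Figure D3:**
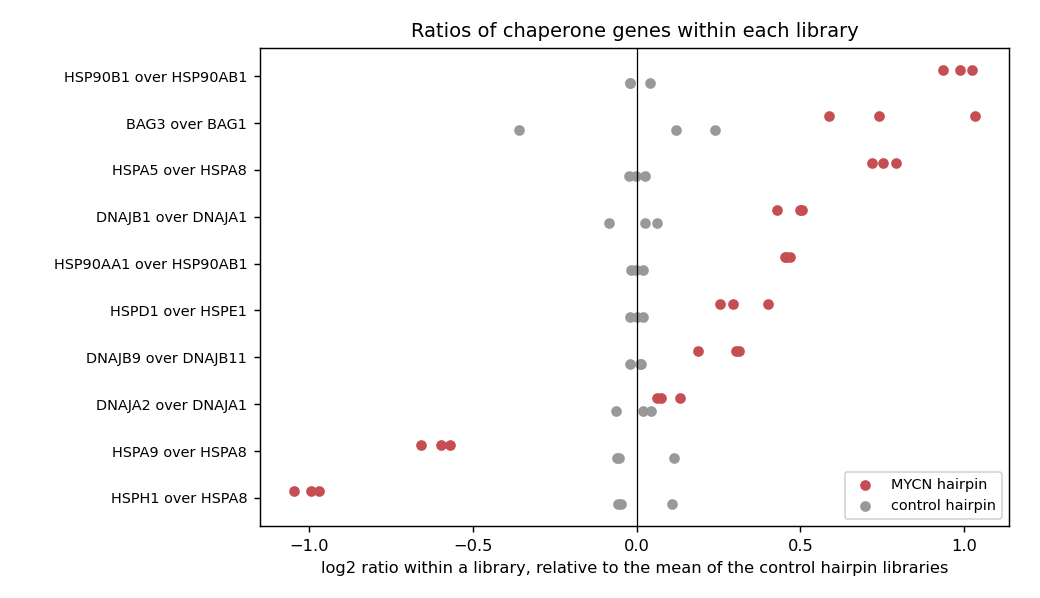
Log2 ratio of the first gene to the second within each library, minus the mean of the control hairpin libraries (x axis), for 10 pairs (y axis); each point is a library. MYCN hairpin points lie clear of control hairpin points in every pair shown, with the narrowest gap for DNAJA2 over DNAJA1.

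The remaining ratios were smaller or noisier. The log2 ratio of DNAJB9 to DNAJB11 was -0.62, -0.74 and -0.62 in MYCN hairpin libraries and -0.92, -0.95 and -0.92 in control hairpin libraries, a difference of 0.27, and that of DNAJA2 to DNAJA1 differed by 0.09 (exact permutation test, p = 0.1 for each). BAG3 to BAG1 differed by 0.79 (exact permutation test, p = 0.1), with the low counts of BAG3 behind it. All these ratios use log2 of CPM plus 0.5.

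Fold changes in this comparison followed abundance, and the compartments were therefore set beside all genes of like level. Among genes with a mean of at least 8 on the log2 CPM scale, all 623 tested genes had a median log2 fold change of -0.25, while the 6 cytosolic members had -0.42, the 2 mitochondrial members -0.87 and the 2 ER members 0.27. Between 6 and 8, all 3263 genes had a median of -0.07, the 16 cytosolic members -0.20, the 3 mitochondrial members -0.83 and the 4 ER members 0.26. Between 4 and 6, all 4825 genes had a median of -0.002, the 12 cytosolic members -0.19 and the 6 ER members 0.25. Between 2 and 4, all 2358 genes had a median of 0.125, the 5 cytosolic members 0.16, the 2 mitochondrial members 0.18 and the 1 ER member 0.29. Below 2, all 1750 genes had a median of 0.255 and the 4 cytosolic members, DNAJC5G and DNAJB7 among them, 0.446. Above 4, the ER medians were above, and the mitochondrial medians below, those of all genes in each range that held such members, while below 4 neither the mitochondrial nor the cytosolic median was lower than that of all genes. Abundance moves with the fold change, and its part in these differences was not tested.

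**Figure D4:**
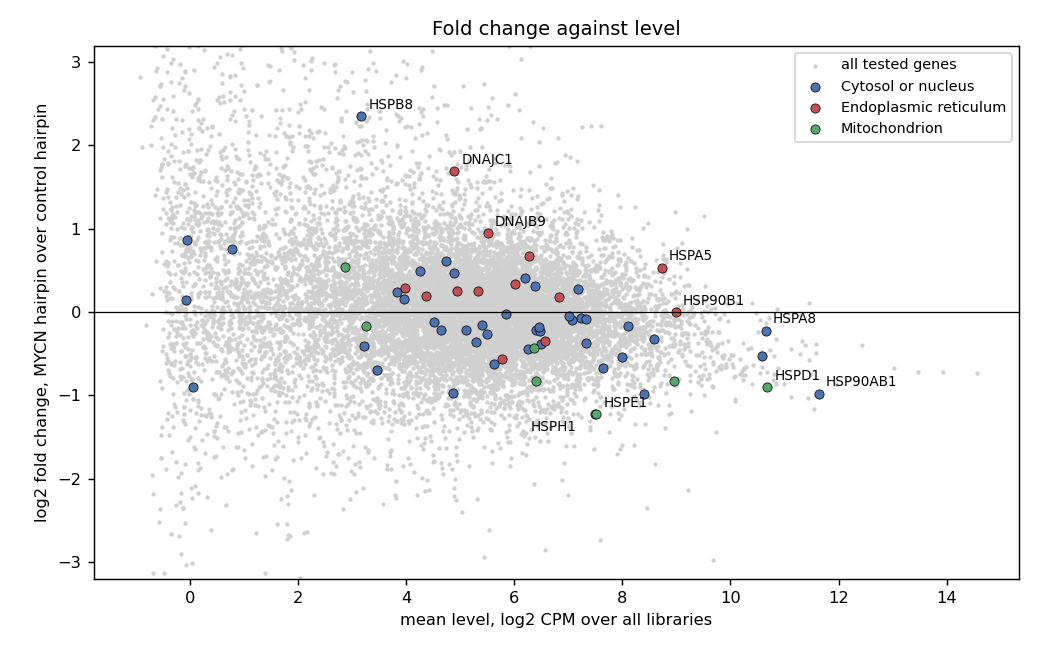
Log2 fold change (MYCN hairpin over control hairpin, y axis) against mean level (log2 CPM over all 6 libraries, x axis) for all tested genes (grey) and for cytosolic or nuclear, ER and mitochondrial members; 80 genes lie outside the y axis. The most abundant members, HSP90AB1, HSPD1 and HSPA8, lie below 0, as do most abundant genes, and HSPA5 lies above 0.

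The scaling between libraries moved the counts of the cytosolic genes, while in the ER 11 were called higher and 2 lower and in mitochondria 1 higher and 5 lower with library sizes alone. When only library sizes were used, the middle gene of the whole table had a log2 fold change of 0.186, and 6597 genes were called higher and 3348 lower. Among cytosolic members 14 were then called higher and 14 lower, in place of 10 and 25, so lower calls no longer outnumbered higher ones. Over all members 27 were called higher and 22 lower, in place of 21 and 34. Higher calls then outnumbered lower ones among members, as they did among all genes. Whether either set still differed from all genes on that scale was not tested. Their median was 0.02 in place of -0.17, which on that scale lies below the median of all genes. HSP90AB1, STIP1, HSPH1, HSPD1, HSPE1 and HSPA9 stayed called lower, and HSPA5, DNAJB9, DNAJB11, DNAJC1 and HSPB8 stayed called higher, under every scaling, filter, tool and left-out library tried.

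The members left unassigned to a compartment were DNAJC4, DNAJC22, DNAJC25, DNAJC28 and the readthrough transcript DNAJC25-GNG10. DNAJC4 fell by 0.48 and DNAJC25 by 0.32, the second not called with library sizes alone, and the readthrough shares its sequence with DNAJC25, so these counts are uncertain. DNAJC28 had 0.14 (adjusted p = 0.34) and did not pass the test. Genes without enough counts for the test were DNAJA4 (4 counts over the MYCN hairpin libraries and 3 over the control hairpin libraries), DNAJB13 (25 and 16), DNAJC22 (18 and 23), DNAJC5B (0 and 0), DNAJC25-GNG10 (7 and 0), DNAJC15 and the HSP70 genes named above. HSPA12B, at 43 and 35 counts, was tested and not called (log2 fold change 0.14, adjusted p = 0.714).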

How the data were processed

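RNA was sequenced from 6 Y79 libraries, 3 with the MYCN hairpin and 3 with the control hairpin. The authors deposited expected counts per gene (12.51% to 12.83% of values are not whole, as the values in the deposited table show), with GRCh38 named in the submitters' processing notes; no aligner, counter, annotation or strand setting is given in the sources used here. Values were rounded to whole counts, and 22 rows without values were left out, which leaves 17013 genes. Genes kept by filterByExpr at its defaults (12819) were fitted together in edgeR 4.0.16 (R 4.3.3; TMM scaling, robust quasi-likelihood F-test, Benjamini-Hochberg adjustment, calls at an adjusted p under 0.05). The common coefficient of variation between replicates, beyond counting error, was 3.34%. Adjusted p values rest on this small spread, and which part of it is biological was not tested. Intervals on summed counts are exact at 95% and, like the floor of 3 counts, cover counting error only.

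Ratios within a library used log2 of CPM plus 0.5 and an exact permutation test (scipy 1.17.1). Gene positions, lengths and pseudogene names are from GENCODE 29, and promoters from RefSeq (GRCh38.p14). Named genes were MYCN, all members of small classes, the most abundant and most changed members of large classes, and the most changed genes of each list; the other members named were chosen after their values were seen. The members and lists were chosen with earlier results of these data known. A simulation of 12722 genes altered only 50 at each size of change. The fit found 64% at 1.2-fold, 92% at 1.5-fold, 100% at 2-fold and 98% at 3-fold, and called 10 unaltered genes. In the data 75.8% of tested genes were called, so the simulation cannot show how the fit performs where most genes differ. Alternatives were other scalings, filters and tools (limma 3.58.1, DESeq2 1.42.0), a replicate block and leaving out each library. A result for 1 gene of the lists is not reported here.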

Additional observations from a re-analysis of the deposited data

How the results depend on the processing

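Of 67 named genes with a fitted value, 48 kept their direction and their side of the threshold in every alternative run. With at least 2-fold required, 1184 genes of the whole table rose and 673 fell, 2 members rose and 2 fell, 1 cytosolic member rose and 1 fell, 1 ER member rose and 0 fell, and 0 mitochondrial members rose and 1 fell. In the same setting 0 HSP90 cochaperones rose or fell, 0 exchange factors fell, 0 ER folding genes rose or fell, 0 mitochondrial chaperones or proteases rose and 1 fell, and 0 other J-domain genes rose or fell. With library sizes alone 22 members were called lower (27 higher) and 14 cytosolic members lower (14 higher), 7 HSP90 cochaperones lower, 2 exchange factors higher and 2 mitochondrial chaperones or proteases higher (1 with upper quartile scaling). Of the 55 members called, 43 were then still called in the same direction, and 10 members changed sign: DNAJA1 (0.02), DNAJA2 (0.11), DNAJC5 (0.136), HSF2 (0.156), DNAJB2, DNAJB6, DNAJC6, DNAJC9, DNAJC19 and HSPB1. The 4 values given lie below the 0.186 shift of all genes.

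The median over members was -0.128 with upper quartile scaling, 0.016 with library sizes alone and -0.139 with no low count filter, and -0.175 to -0.134 when 1 library was left out. For cytosolic members it was -0.18, -0.037 and -0.175 in these settings and -0.212 to -0.178 without 1 library. For ER members it was 0.291 with upper quartile scaling, 0.434 with library sizes alone and 0.253 to 0.286 without 1 library. For mitochondrial members it was -0.644 with library sizes alone, -0.639 with no filter and -0.636 to -0.608 without 1 library, since DNAJC15 then entered the test, in the fits without 1 library only through the group where it is higher, and 2 mitochondrial members were called higher in each of those fits and with no filter. Exchange factors called higher numbered 0 to 1 when 1 library was left out. Leaving out 1 library kept 51 to 54 of the 55 calls.

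Same-number libraries of the groups correlated at 0.137, -0.0436 and 0.208 over 6526 genes, and different-number libraries at -0.205 to 0.12. The same-number values of replicates 1 and 3 were the highest, so whether replicate numbers pair the libraries is not settled. With the replicate number as a block, 56 members were called, all 55 and DNAJB6. Depth limits the members with few counts, such as BAG3, DNAJB7, DNAJC5G and DNAJC15.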
